A study of Mus musculus with 12 samples.

Results

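The 68 genes described here encode axon guidance ligands and receptors of the mouse. They were taken from a table of 55335 genes as every protein-coding gene with the symbol of an Eph receptor, an ephrin, a semaphorin of classes 3 to 7, a plexin, a neuropilin, a Slit, a Robo, a netrin or an Unc5 receptor. Dcc and Neo1, which encode further netrin receptors, do not have such symbols and are counted among the partners below. The rule used symbols and gene types only, and no expression value, but it was set with earlier results of these data known. Of the 68, 60 had enough counts to be tested among 16468 tested genes, and 8 had not. There were 35 ligand genes, 33 of them tested, and 33 receptor genes, 27 of them tested.

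Guidance molecules steer growing axons and migrating cells by attraction, repulsion and contact at boundaries. Ephrins are bound to the membrane and activate Eph receptor tyrosine kinases on a neighbouring cell. Semaphorins act through plexins, and most secreted semaphorins need a neuropilin as co-receptor. Slits act through Robo receptors, and netrins through Dcc, neogenin and Unc5 receptors. The same proteins take part in boundary formation, blood vessel growth and epithelial shape in embryos, so their transcripts are not limited to neurons.

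The 12 RNA-seq libraries, 3 for each of days 0, 2, 4 and 6, came from the polyadenylated RNA of a single line of embryonic stem (ES) cells of the mouse. No genotype, strain or added agent is named for any day. All libraries share the same stated culture, a serum replacement medium with leukaemia inhibitory factor (LIF) on gelatin with irradiated mouse embryonic fibroblasts, and the labels do not say what was done from day 0 on. Whether the replicates of a day came from different cultures is not stated either. The p-values therefore set differences between days only against the spread of these libraries, and this spread may be technical. Total counts were 6945900 to 13266962 per library, and the 68 genes took 0.0726 to 0.127% of them.

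The label of ES cells was checked against 8 pluripotency markers, whose summed level was 5049 to 5145 CPM (counts scaled to a common library total, the usual measure of level) at day 0 and 788 to 816 CPM at day 6. All 8 were lower at each later day than at day 0. Lists of other cell types moved too. Of all tested genes, 39.4% were above day 0 at day 6 and 37.5% below, by the test described below. Summed fibroblast markers were at 32.8 to 37.6 CPM at day 0, 27.7 to 29.4 at day 2, 42.0 to 47.4 at day 4 and 179 to 198 at day 6, where 7 of 10 tested members were above day 0 and 3 below. Dcn and S100a4 of this list had too few counts to be tested, and Lum had 0 counts at day 0, Dcn at day 2 and S100a4 at day 6. Neuronal markers summed to 216 to 219.6 CPM at day 0, 64.9 to 69.9 at day 2 and 92.1 to 93.4 at day 6, with Dcx at 0 counts at day 0. Stmn2 alone went from 121 ± 2.03 to 6.28 ± 0.583 CPM, whereas at day 6, 5 of 9 tested neuronal markers were above day 0 and 3 below. Neural progenitor markers went from 34.2 to 36.8 CPM at day 0 to 98.2 to 110.3 CPM at day 6, with Neurog2 at 0 counts at day 0. Nes alone went from 20.04 ± 2.15 to 63.5 ± 4.23 CPM. At day 6, 7 of these 8 markers were above day 0 and 1 below. The latter was Sox1, at 12.7 ± 0.580 CPM at day 0 and 5.18 ± 0.105 CPM at day 6. Endoderm markers summed to 122 to 127 CPM at day 0, 1023 to 1039 at day 4 and 827 to 845 at day 6. Dab2 and Cubn alone had 365 and 235 CPM at day 6, and all 8 endoderm markers were then above day 0. Mesoderm markers went from 39.4 to 44.9 CPM at day 0 to 335 to 338 CPM at day 6. Pdgfra, Meis1 and Meox1 alone had 142, 106 and 54.9 CPM at day 6, and all 6 tested mesoderm markers were above day 0. Tbx6 and Mesp1 of this list had too few counts to be tested. They had 0.701 and 0.407 CPM at day 0 and 0.196 and 0.036 CPM at day 6, with Mesp1 at 0 counts at days 2 and 4. Endothelial markers summed to 274 to 286 CPM at day 0 and 125 to 129 CPM at day 6, with Emcn at 0 counts at day 0. Pecam1 alone went from 241 ± 6.35 to 53.8 ± 1.09 CPM, whereas 5 of 8 endothelial markers were above day 0 at day 6 and 3 below. In bulk RNA, fewer cells of a type and less RNA per cell cannot be told apart, and the part of these cell types in the values below was not tested.

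Most of the 60 tested genes changed. Levels are CPM in replicates 1, 2 and 3 of a day in that order, fold changes are fitted log2 values ± SE, and a gene was said to have risen or fallen where edgeR's quasi-likelihood test gave a Benjamini-Hochberg adjusted p under 0.05 over all 16468 genes. By day 2, 18 of the 60 were above day 0 and 29 below (78.3%), against a background of 68.1% of all tested genes (34.9% above and 33.2% below). By day 4, 28 were above and 25 below day 0 (88.3%, background 73.6%, or 37.5% above and 36.1% below), and by day 6, 33 were above and 21 below (90%, background 76.9%, or 39.4% above and 37.5% below). These 3 comparisons share the day 0 libraries. From day 2 to day 4, 25 rose and 9 fell (background 50.1%, or 25.3% up and 24.8% down), and from day 4 to day 6, 29 rose and 4 fell (background 42.9%, or 23.6% up and 19.3% down). The 4 were Efna4, Epha2, Plxna2 and Sema4d, and their number was 2 without day 6 replicate 1. Taking the 4 days together, 59 of 60 differed (background 89.2%), and the exception was Efna2, with 4.18, 5.25 and 4.05 CPM at day 0 and 5.46, 4.97 and 4.31 CPM at day 6. Its comparison of day 4 with day 0 passed (log2 0.45 ± 0.18, adjusted p = 0.0271), but not with single libraries left out, at 0.39 without day 0 replicate 1 (adjusted p = 0.0957), 0.38 without day 0 replicate 3 (adjusted p = 0.0991) and 0.36 without day 4 replicate 3 (adjusted p = 0.0991), nor with DESeq2 (log2 0.45, adjusted p = 0.0722).

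The sizes of the changes were as follows. Changes of at least 2-fold that passed the test numbered 31 of 60 at day 2, 37 at day 4 and 40 at day 6, or 51.7, 61.7 and 66.7%, where all tested genes gave 22.2, 29.6 and 32.1%. Of these 40 at day 6, 25 were higher and 15 lower than at day 0. Between days 2 and 4 there were 13 such changes (background 9.39%), 11 of them rises, and between days 4 and 6 there were 7 (background 5.61%), all of them rises. Replicates did not overlap with those of day 0 for 50 of the 60 at day 2 (background 70.7%), 54 at day 4 (background 75.2%) and 55 at day 6 (background 78.3%). Between days 2 and 4 this held for 39 (background 55.7%), and between days 4 and 6 also for 39 (background 50.7%). The median log2 change of the 60 genes was -0.24 at day 2, 0.12 at day 4 and 0.65 at day 6 against day 0, where the median over all tested genes was 0.02, 0.01 and 0.02. If libraries are scaled by library size alone, the median over all genes moves by 0.132 at day 2, 0.128 at day 4 and 0.104 at day 6. The split of all changed genes at day 2 then goes from 51.2 to 61.5% higher, and that of the 60 genes from 18 higher and 29 lower to 21 and 24.

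**Figure D1:**
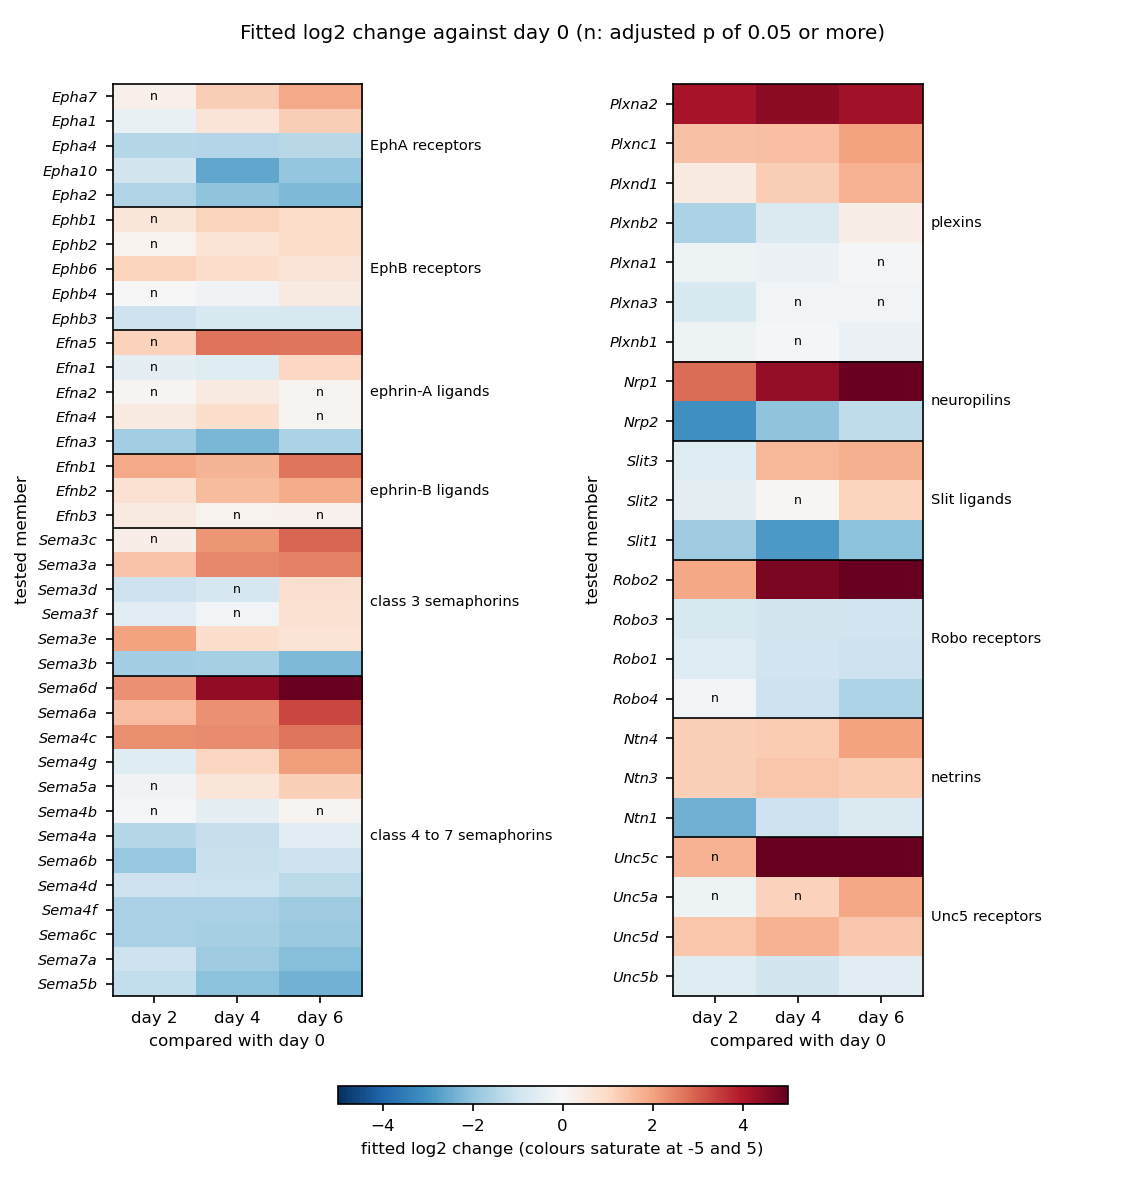
Fitted log2 change of the 60 tested genes at days 2, 4 and 6 against day 0, grouped by family, with red for higher and blue for lower. The letter n marks values with an adjusted p of 0.05 or more, of which there are 13 at day 2, 7 at day 4 and 6 at day 6.

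The ephrin sum per length was larger at day 6 than at day 0, and ephrin-B genes held more of it. Ephrin-A proteins are held in the membrane by a lipid anchor, whereas ephrin-B proteins cross it and signal back into their own cell. All 3 ephrin-B genes were above day 0 at day 2 (background 34.9%), and 2 of 3 at day 6 (background 39.4%). The 5 ephrin-A genes gave 2 higher, 1 lower (background 37.5%) and 2 that did not pass at day 6. Levels of different genes are compared as CPM per kb of exon, with the union of all annotated exons of a gene as its length. Which transcripts were present is not known, so all shares and orders per length depend on this choice. By this measure, ephrin-B genes took 25.5 ± 2.47% of the ephrin sum at day 0, 43.0 ± 1.75% at day 2, 38.6 ± 1.14% at day 4 and 53.8 ± 1.5% at day 6 (SD, n = 3). The ephrin sum itself was 22.8 ± 1.56 CPM per kb at day 0 and 37.8 ± 1.00 at day 6.

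Efnb1 (ENSMUSG00000031217, chromosome X, 99136130 to 99148991, plus strand, GRCm38), the ephrin-B whose loss disturbs craniofacial boundaries, had 4.86, 7.09 and 7.72 CPM at day 0 and 24.5, 23.4 and 23.6 CPM at day 2. It had 20.04, 21.9 and 21.2 CPM at day 4 and 42.9, 40.4 and 39.5 CPM at day 6. The gene thus took its main steps before day 2 and after day 4, with no overlap between any of the days, and it was 6.32-fold above day 0 at the end (log2 2.66 ± 0.11, adjusted p = 1.33e-23). From day 2 to day 4 its fitted change was -0.18 ± 0.09 (adjusted p = 0.0802). Efnb2 (ENSMUSG00000001300, chromosome 8, 8617434 to 8661242, minus strand), known from arteries and somite boundaries, rose at each of the 3 steps. Its values were 8.702, 12.1 and 12.9 CPM at day 0, 18.3, 19.9 and 19.3 at day 2, 33.2, 32.5 and 35.1 at day 4 and 39.2, 39.9 and 40.8 at day 6, so that no day overlapped another (3.58-fold at day 6, log2 1.84 ± 0.10, adjusted p = 6.73e-20). Efnb3, the ephrin-B of the spinal cord midline, was raised from 7.22 ± 0.968 CPM at day 0 to 9.98 ± 0.894 CPM at day 2 (log2 0.46 ± 0.13, adjusted p = 0.00218) and stood at 8.42 ± 0.293 CPM at day 6.

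Among ephrin-A genes, Efna4 (ENSMUSG00000028040, chromosome 3, 89333390 to 89338028, minus strand) was the highest ephrin per length at days 0, 2 and 4, at 8.89 ± 1.21, 12.02 ± 0.678 and 16.2 ± 0.252 CPM per kb. At day 6 it stood at 9.74 ± 0.808, below Efnb1 at 11.9 ± 0.516. Its library values were 13.4, 16.4 and 12.8 CPM at day 0, 20.4, 18.2 and 19.01 at day 2, 26.3, 25.7 and 25.6 at day 4 and 14.96, 17.1 and 14.7 at day 6. Efna4 therefore peaked at day 4 (0.87 ± 0.10 in log2 against day 0), fell back (log2 -0.74 ± 0.09, adjusted p = 1.94e-08), and overlapped day 0 again at day 6. Efna3 (ENSMUSG00000028039, chromosome 3, 89313899 to 89322965, minus strand) went the other way. It had 10.96, 10.2 and 9.75 CPM at day 0, 2.65, 3.46 and 3.18 at day 2, 2.61, 1.83 and 1.85 at day 4 and 3.44, 3.13 and 3.89 at day 6. Every later library was below every day 0 library, and the fall at day 2 was 3.34-fold (log2 -1.74 ± 0.16, adjusted p = 2.42e-12). Both genes share exon bases with an antisense gene, 10.5% of Efna4 and 14.1% of Efna3, the partners reaching at most 7 and 10 counts in a library, and the counting is not stated to use strand. Efna5, a repellent of retinal axons, rose from 0.330 ± 0.199 to 2.24 ± 0.877 CPM at day 4 (log2 2.72 ± 0.47, adjusted p = 2.41e-06), which rests on 3, 4 and 1 counts at day 0. Efna1, a vascular ephrin, was at 3.05 ± 0.597 CPM at day 0 and 1.94 ± 0.572 CPM at day 4 and rose 3.13-fold to 6.35 ± 0.597 CPM at day 6 (log2 1.65 ± 0.22, adjusted p = 8.62e-08).

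The EphA share of the Eph receptors decreased. By summed CPM per kb, EphA genes made up 74.0 ± 0.59% of all Eph receptors at day 0 and 55.4 ± 1.35, 54.7 ± 0.82 and 52.4 ± 0.50% at days 2, 4 and 6. Of the 5 tested EphA genes, 4 fell by day 2, and of the 5 EphB genes 1 rose and 1 fell (background 34.9% up and 33.2% down). The 4 falls were 2 without day 0 replicate 1, without day 2 replicate 2 and with library size alone, where Epha1 and Epha10 no longer passed. For Epha10 these values were -0.69 (adjusted p = 0.164), -0.63 (adjusted p = 0.139) and -0.77 (adjusted p = 0.0533). The falls were also 2 with adjusted p under 0.01, which Epha1 (adjusted p = 0.0242) and Epha10 (adjusted p = 0.0249) did not reach. A further rise passed for Epha7 without day 0 replicate 3 and with library size alone, and for Ephb2 without day 2 replicate 2, with library size alone and without a count filter. At day 6, 2 EphA genes were above and 3 below day 0, and 4 EphB genes above and 1 below (background 39.4% and 37.5%). The sum over all Eph receptors went from 64.0 ± 1.39 CPM per kb at day 0 to 34.1 ± 1.07 at day 2 and 40.8 ± 1.501 at day 6.

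Epha2 (ENSMUSG00000006445, chromosome 4, 141301240 to 141329384, plus strand), an Eph receptor of epithelia and ES cells, had 112, 114 and 114 CPM at day 0 and 39.3, 39.9 and 41.3 CPM at day 2. It went on to 28.4, 28.8 and 26.3 CPM at day 4 and 22.6, 23.9 and 26.3 CPM at day 6. The day 0 libraries lay far above all others, and at day 6 the gene was 4.699-fold lower (log2 -2.23 ± 0.06, adjusted p = 6.02e-29). Epha4 (ENSMUSG00000026235, chromosome 1, 77367185 to 77515088, minus strand), which binds ephrins of both classes and sharpens segment borders in the hindbrain, fell in 1 step. Its values were 153, 165 and 157 CPM at day 0, 58.9, 61.3 and 56.1 at day 2, 58.4, 59.8 and 55.6 at day 4 and 61.8, 57.1 and 64.3 at day 6. The fall was 2.69-fold by day 2 (log2 -1.43 ± 0.05, adjusted p = 9.66e-25), and the later steps were -0.02 ± 0.06 (adjusted p = 0.825) and 0.07 ± 0.06 (adjusted p = 0.326), with overlapping libraries. Of the Eph sum per length, Epha2 held 37.9 ± 0.771% at day 0 and 12.7 ± 0.538% at day 6, and Epha4 30.7 ± 0.565% and 18.6 ± 0.804%.

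Other EphA receptors rose late. Epha7 (ENSMUSG00000028289, chromosome 4, 28813131 to 28967499, plus strand), an Eph receptor of the neural tube and cortex, had 6.33, 7.22 and 8.99 CPM at day 0, 9.02, 8.601 and 9.46 at day 2, 19.2, 17.2 and 15.6 at day 4 and 27.5, 27.5 and 27.4 at day 6. Days 0 and 2 overlapped, and each later day lay above the one before, to 3.67-fold above day 0 (log2 1.88 ± 0.11, adjusted p = 3.97e-18). Epha1, the epithelial founder of the family, had 9.49, 9.71 and 8.48 CPM at day 0, 8.26, 6.75 and 6.55 at day 2, 14.2, 15.9 and 12.1 at day 4 and 20.1, 22.3 and 23.4 at day 6, and was 2.36-fold higher at the end (log2 1.24 ± 0.12, adjusted p = 2.67e-12). It shares 6.01% of its exon bases with Zyx on the other strand, which reached 1020 counts in a library. Epha10, which lacks kinase activity, fell from 1.79 ± 0.439 CPM at day 0 to 0.303 ± 0.117 CPM at day 4 (log2 -2.59 ± 0.50, adjusted p = 1.60e-05). Epha3, Epha5, Epha6 and Epha8 had too few counts to be tested, with at most 15, 6, 3 and 5 counts in a library. Epha3 had no count at day 0 and 15, 14 and 6 counts at day 6.

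Among EphB receptors, Ephb4 (ENSMUSG00000029710, chromosome 5, 137350109 to 137378669, plus strand), the venous partner of ephrin-B2, became the highest Eph receptor per length at day 6, at 11.2 ± 0.192 CPM per kb against 7.58 ± 0.452 for Epha4. At day 0 it was at 8.099 ± 0.275 against 24.2 ± 0.259 for Epha2. At days 2 and 4 the leading receptors were close: Epha2 had 8.59 ± 0.223 and Ephb4 7.92 ± 0.556 CPM per kb at day 2, and Epha4 had 7.196 ± 0.265 and Ephb4 7.14 ± 0.285 at day 4, and their order is within the spread. Ephb4 had 38.9, 37.5 and 36.3 CPM at day 0, 37.3, 38.99 and 33.9 at day 2, 34.2, 33.6 and 31.7 at day 4 and 50.9, 52.4 and 52.4 at day 6. The libraries of day 6 lay above all others (log2 0.64 ± 0.07, adjusted p = 2.60e-10 against day 4).

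Ephb2 and Ephb3, receptors of commissural axons and of gut crypts, went in opposite directions. Ephb2 had 19.7, 19.7 and 16.96 CPM at day 0, 21.98, 19.9 and 21.8 at day 2, 28.6, 31.7 and 31.5 at day 4 and 37.5, 33.5 and 34.9 at day 6, a rise of 1.89-fold (log2 0.92 ± 0.08, adjusted p = 1.66e-12). Ephb3 had 36.2, 41.5 and 36.4 CPM at day 0, 19.2, 18.7 and 18.3 at day 2, 25.4, 20.8 and 20.02 at day 4 and 20.7, 19.7 and 26.2 at day 6. No later Ephb3 library reached a day 0 library, and its fall by day 2 was 2.02-fold (log2 -1.02 ± 0.09, adjusted p = 4.03e-12). Ephb6, which has no kinase activity, rose from 4.48 ± 0.0751 CPM at day 0 to 9.74 ± 2.78 CPM at day 2 (log2 1.13 ± 0.17, adjusted p = 4.75e-07), and Ephb1 from 0.945 ± 0.0588 to 1.999 ± 0.393 CPM at day 4 (log2 1.11 ± 0.34, adjusted p = 0.00431).

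**Figure D2:**
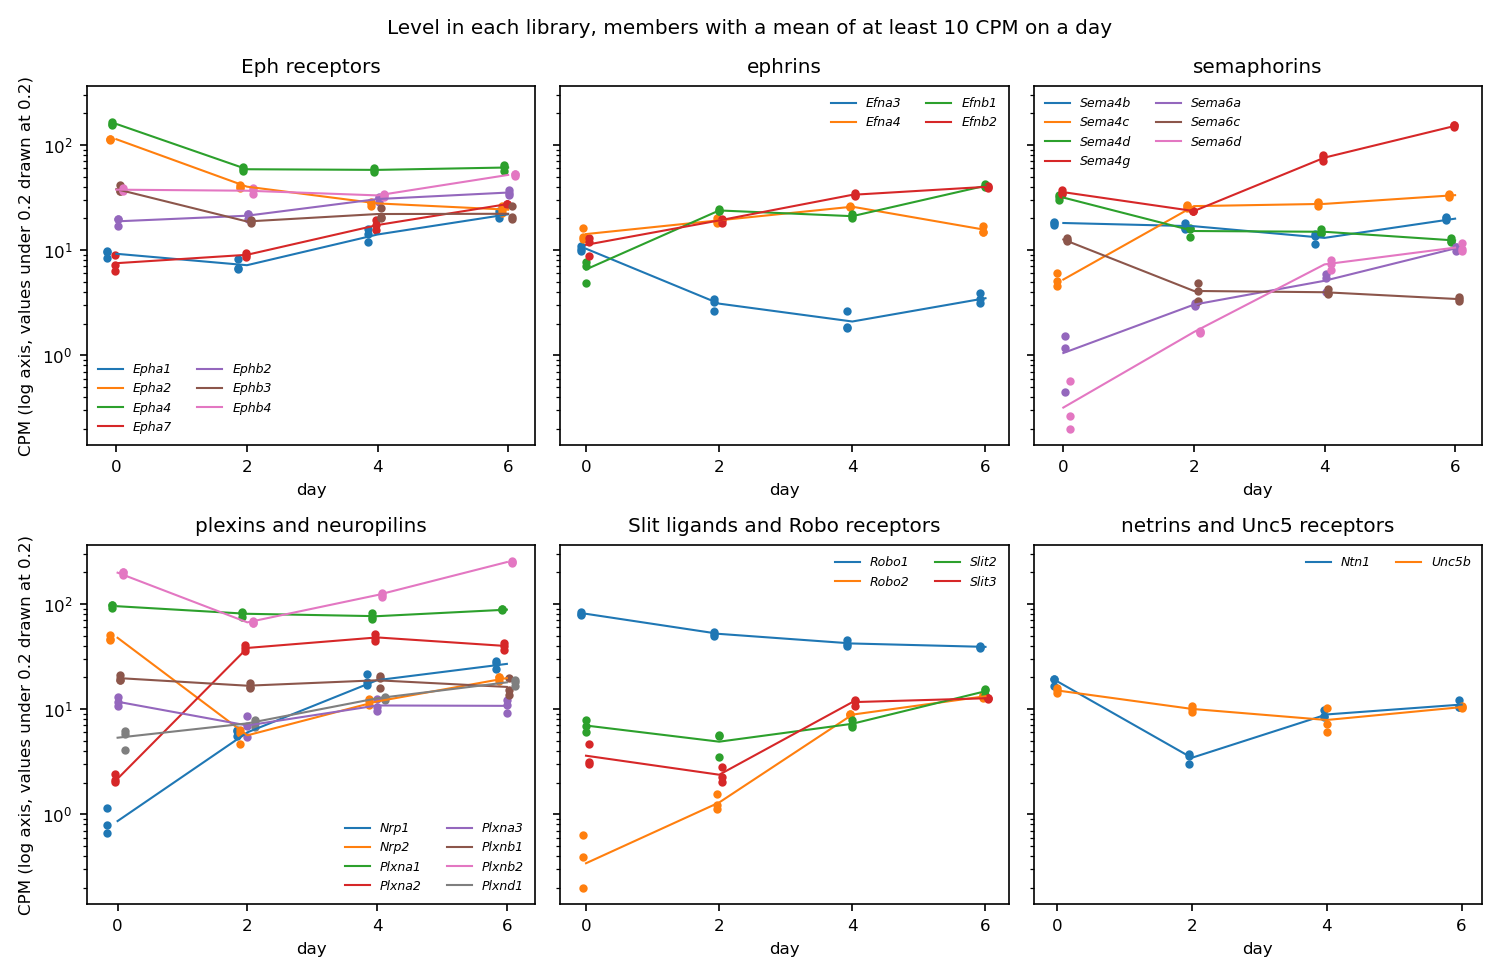
CPM of each library against day for the 32 genes with a mean of at least 10 CPM on some day, on a log axis, with lines through the daily means and values under 0.2 drawn at 0.2. Plxnb2 and Nrp2 dip at day 2, Nrp1, Plxna2, Robo2 and Sema6d climb from near the bottom, and replicates of a day lie close together apart from the lowest values.

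Secreted class 3 semaphorins were expressed at low levels, and none of the 7 reached a mean of 10 CPM. By length they made up 11.2 ± 0.72% of the semaphorin sum at day 0 and 8.34 ± 0.91% at day 6. Against day 0, 2 of the 6 tested rose and 3 fell at day 2 (background 34.9% up and 33.2% down). At day 6, 5 rose and 1 fell (background 39.4% and 37.5%). The day 2 counts were 1 and 1 without day 0 replicate 1. They were 2 and 1 without day 0 replicate 2, with DESeq2, without a count filter or with adjusted p under 0.01. They were 1 and 3 in a fit to the 6 libraries compared, in which Sema3a had too few counts to be tested. At day 6, 3 rose without day 6 replicate 1 or with adjusted p under 0.01. Sema3c, which guides cardiac neural crest, rose from 1.01 ± 0.363 CPM at day 0 to 4.74 ± 0.809 at day 4 and 7.73 ± 0.925 at day 6 (7.54-fold, log2 2.91 ± 0.24, adjusted p = 7.74e-14). Sema3a, the founding axon repellent that binds neuropilin-1, went from 0.419 ± 0.167 to 2.37 ± 0.505 CPM (log2 2.52 ± 0.40, adjusted p = 4.55e-07). Its day 0 level rests on 2, 4 and 4 counts. Sema3b was at 6.33 ± 1.21 CPM at day 0 and at 1.33 ± 0.197 CPM at day 6, a fall of 4.79-fold (log2 -2.26 ± 0.23, adjusted p = 1.71e-11). Sema3e, which binds plexin-D1 directly, had its maximum at day 2, at 7.71 ± 0.865 CPM between 1.89 ± 0.0431 at day 0 and 3.54 ± 0.406 at day 4. Its rise was 2.02 ± 0.20 and its following fall -1.14 ± 0.17 in log2 (adjusted p = 1.30e-11 and 3.01e-07). No other gene of the 60 rose by day 2 and then fell to day 4, against a background of 7.89% of all tested genes, but without day 2 replicate 2 there were 2 such genes. Sema3d and Sema3f ended at 2.14 ± 0.727 and 5.31 ± 0.516 CPM. Sema3g had at most 10 counts in a library and was not tested.

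Membrane-bound semaphorins of classes 4 to 7 split. At day 6, 5 of the 13 were above day 0 (background 39.4%), 7 were below (background 37.5%), and 1 did not pass. Sema4g (ENSMUSG00000025207, chromosome 19, 44989101 to 45003397, plus strand), a ligand of plexin-B2, gained most in CPM. It had 34.9, 37.3 and 34.6 CPM at day 0 and 23.5, 23.3 and 23.7 CPM at day 2, and then 77.2, 70.2 and 79.9 CPM at day 4 and 153, 149 and 154 CPM at day 6. After a dip at day 2 (log2 -0.597 ± 0.07, adjusted p = 1.69e-09), each day lay well above the one before, and day 6 was 4.28-fold above day 0 (log2 2.096 ± 0.06, adjusted p = 3.22e-29). Per length Sema4g took 17.6 ± 1.09% of the semaphorin sum at day 0 and 45.9 ± 0.295% at day 6. Sema4d (ENSMUSG00000021451, chromosome 13, 51685529 to 51793747, minus strand), the plexin-B1 ligand known from immune cells, began level with it, at 4.12 ± 0.237 against 4.11 ± 0.171 CPM per kb. It had 31.9, 29.7 and 33.3 CPM at day 0, 16.3, 15.8 and 13.5 at day 2, 14.4, 14.5 and 15.9 at day 4 and 11.8, 12.3 and 12.9 at day 6, and was 2.57-fold lower at the end (log2 -1.36 ± 0.09, adjusted p = 2.84e-16).

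Sema4c (ENSMUSG00000026121, chromosome 1, 36548639 to 36558349, minus strand), another plexin-B2 ligand, rose early and stayed high. Its values were 5.09, 4.59 and 6.07 CPM at day 0, 25.01, 26.5 and 27.1 at day 2, 27.9, 26.03 and 28.7 at day 4 and 32.3, 33.3 and 34.4 at day 6. All later libraries were at least 4 times the highest of day 0 (6.07 against 25.01 CPM and more), with a rise of 4.97-fold by day 2 (log2 2.31 ± 0.11, adjusted p = 1.26e-20). It was the highest semaphorin per length at day 2, at 5.71 ± 0.235 CPM per kb. Sema4b stayed within a narrow range, with 18.6, 17.5 and 18.2 CPM at day 0, 16.4, 15.997 and 18.3 at day 2, 13.6, 14.3 and 11.4 at day 4 and 19.2, 20.5 and 20.1 at day 6. Day 4 was its low point (log2 -0.45 ± 0.10, adjusted p = 0.000203 against day 0). Sema4a, Sema4f and Sema5b went from 5.84, 4.802 and 7.37 CPM at day 0 to 2.68, 1.58 and 1.74 CPM at day 4, all of them falls. Sema5b was then 5.11-fold lower at day 6 (log2 -2.35 ± 0.23, adjusted p = 4.37e-12). Sema5a, its paralogue with the same thrombospondin repeats, rose from 2.29 ± 0.0721 to 5.36 ± 0.788 CPM (log2 1.203 ± 0.21, adjusted p = 2.79e-06).

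Class 6 semaphorins, which serve plexin-A receptors, contained the largest fitted rises among the semaphorins at day 6, those of Sema6d and Sema6a, and also falls. Sema6d (ENSMUSG00000027200, chromosome 2, 124089969 to 124667770, plus strand), a plexin-A1 ligand of the heart and nervous system, had 0.565, 0.263 and 0.127 CPM at day 0 and 1.67, 1.69 and 1.64 CPM at day 2. It reached 8.03, 6.53 and 7.38 CPM at day 4 and 9.88, 10.3 and 11.6 CPM at day 6, with no overlap between any of the days. The fitted rise was log2 4.95 ± 0.28, adjusted p = 7.25e-19 at day 6 and rests on 5, 2 and 1 counts at day 0. Without day 0 replicate 1 it was 5.68 (adjusted p = 2.79e-16). Sema6a (ENSMUSG00000019647, chromosome 18, 47235598 to 47368870, minus strand) also rose at each step, from 0.452, 1.18 and 1.52 CPM at day 0 through 2.96, 3.14 and 3.001 at day 2 and 5.904, 4.03 and 5.39 at day 4 to 10.7, 9.83 and 10.6 at day 6 (10.03-fold, log2 3.33 ± 0.23, adjusted p = 4.69e-16). Sema6c had 12.2, 13.1 and 12.5 CPM at day 0, 3.26, 4.0996 and 4.91 at day 2, 3.87, 4.23 and 3.83 at day 4 and 3.59, 3.46 and 3.26 at day 6. It fell 3.11-fold by day 2 (log2 -1.64 ± 0.14, adjusted p = 6.30e-13) and all later libraries stayed below day 0. Sema6b fell with it, from 4.33 ± 0.364 to 1.18 ± 0.498 CPM (log2 -1.91 ± 0.30, adjusted p = 1.28e-06). Sema7a, a lipid-anchored ligand of plexin-C1 and integrins, fell 4.39-fold by day 6, from 5.49 ± 0.717 to 1.23 ± 0.222 CPM (log2 -2.13 ± 0.24, adjusted p = 4.14e-10).

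The neuropilins exchanged places. Neuropilin-1 is the co-receptor for Sema3A and vascular endothelial growth factor, and neuropilin-2 prefers Sema3F and related ligands. Nrp2 (ENSMUSG00000025969, chromosome 1, 62703285 to 62818695, plus strand) had 46.9, 50.8 and 45.3 CPM at day 0, 5.91, 6.35 and 4.64 at day 2, 12.5, 10.95 and 12.1 at day 4 and 20.4, 18.5 and 20.4 at day 6. It fell 8.38-fold by day 2 (log2 -3.07 ± 0.10, adjusted p = 2.18e-26) and regained part of this by day 4 (log2 1.06 ± 0.13, adjusted p = 5.79e-09) and by day 6 (log2 0.74 ± 0.10, adjusted p = 1.57e-07), without reaching a day 0 library. Nrp1 (ENSMUSG00000025810, chromosome 8, 128358604 to 128503363, plus strand) had 0.791, 0.656 and 1.14 CPM at day 0, 6.21, 5.55 and 6.27 at day 2, 16.8, 18.3 and 21.4 at day 4 and 28.96, 27.7 and 24.2 at day 6. No day overlapped another, and the rise was 6.88-fold by day 2 and 30.98-fold by day 6 (log2 4.95 ± 0.19, adjusted p = 1.26e-24). Per length, Nrp2 made up 97.8 ± 0.721% of the pair at day 0, and Nrp1 56.5 ± 5.37%, 65.7 ± 3.27% and 62.2 ± 2.9000% at days 2, 4 and 6. At day 2 the pair lay closest, with 0.614 ± 0.0413 CPM per kb for Nrp1 and 0.476 ± 0.0751 for Nrp2.

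The 250 bases before the start that RefSeq gives for 4 genes are shown, taken from the RefSeq table for GRCm38.p6 and written 5′ to 3′ on the strand of the gene, here the plus strand. The neuropilins were chosen because they moved in opposite directions from day 0 to day 2, and Plxna2 and Unc5c because their transcripts were scarce at day 0 and rose. Capitals mark matches on either strand. The motifs searched were the GC box (GGGCGG), the CCAAT box (CCAAT), the TATA box (TATAAA), a core motif of nuclear receptors (AGGTCA) and the E-box (CACGTG). A pair of GC boxes on the minus strand of Nrp2 overlaps by a letter and forms a single run of capitals.
Nrp1, chr8:128358823-128359072: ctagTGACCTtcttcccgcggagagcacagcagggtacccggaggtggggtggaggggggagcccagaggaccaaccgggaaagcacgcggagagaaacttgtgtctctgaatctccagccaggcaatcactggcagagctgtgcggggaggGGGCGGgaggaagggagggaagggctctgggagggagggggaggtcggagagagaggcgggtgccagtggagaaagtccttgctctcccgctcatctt
Nrp2, chr1:62703067-62703316: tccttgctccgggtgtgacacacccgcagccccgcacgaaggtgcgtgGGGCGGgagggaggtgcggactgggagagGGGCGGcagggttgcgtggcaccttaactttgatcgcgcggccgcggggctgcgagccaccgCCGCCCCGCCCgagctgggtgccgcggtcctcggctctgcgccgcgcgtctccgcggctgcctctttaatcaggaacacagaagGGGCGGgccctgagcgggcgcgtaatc
Plxna2, chr1:194619579-194619828: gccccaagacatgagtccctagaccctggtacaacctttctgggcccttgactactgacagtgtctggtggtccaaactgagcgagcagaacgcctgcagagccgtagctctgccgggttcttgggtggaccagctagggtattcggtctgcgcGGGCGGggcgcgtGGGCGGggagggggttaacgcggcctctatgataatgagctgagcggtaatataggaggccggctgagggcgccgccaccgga
Unc5c, chr3:141465314-141465563: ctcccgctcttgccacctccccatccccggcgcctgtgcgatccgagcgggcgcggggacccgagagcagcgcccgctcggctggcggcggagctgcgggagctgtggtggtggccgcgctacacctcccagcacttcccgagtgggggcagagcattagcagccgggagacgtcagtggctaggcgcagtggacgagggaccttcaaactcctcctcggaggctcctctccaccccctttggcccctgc

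The Nrp1 window held 1 GC box, 1 nuclear receptor core motif and 11 CG dinucleotides. The Nrp2 window held 5 GC boxes and 32 CG dinucleotides, that of Plxna2 2 and 18, and that of Unc5c none of the 5 motifs and 23. Of the 68 genes, 59 had an entry in this table, with 75 windows in all. A GC box stood in 70.7% of these windows and in 32.7% of all 32851 windows of the same length, and a nuclear receptor core motif in 14.7 and 14.0%. A CCAAT box was in 26.7 and 33.8%, a TATA box in 2.67 and 12.4%, and an E-box in 5.33 and 6.02%. The median number of CG dinucleotides was 15 in the windows of these genes and 6 in all windows. The set of all windows was not limited to protein-coding genes or matched for CG content, so these differences may not be particular to guidance genes. GENCODE starts these 4 genes further upstream, so that the windows of Nrp1, Plxna2 and Unc5c lie within the GENCODE gene and that of Nrp2 reaches into it. A match describes letters and is not evidence of a bound site.

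Plexins, the signalling receptors for semaphorins, were led by Plxnb2 and Plxna1. Plxnb2 (ENSMUSG00000036606, chromosome 15, 89155549 to 89180788, minus strand), the receptor for Sema4C and Sema4G that is needed for neural tube closure, was the highest of the 68 genes per length at day 0, at 25.7 ± 0.878 CPM per kb against 24.2 ± 0.259 for Epha2, and at day 6, at 32.4 ± 0.620. It had 203, 202 and 191 CPM at day 0, 66.4, 68.7 and 65.5 at day 2, 127, 122 and 116 at day 4 and 251, 254 and 245 at day 6. The 4 days did not overlap: the gene fell 2.97-fold by day 2 (log2 -1.57 ± 0.05, adjusted p = 2.87e-27), recovered (log2 0.86 ± 0.05, adjusted p = 7.00e-18), and ended 1.26-fold above day 0 (log2 0.34 ± 0.04, adjusted p = 8.27e-09). Plxna1 (ENSMUSG00000030084, chromosome 6, 89316314 to 89362620, minus strand) moved little, with 91.2, 97.3 and 96.9 CPM at day 0, 82.9, 75.6 and 83.5 at day 2, 81.3, 72.6 and 75.7 at day 4 and 89.3, 86.7 and 88.8 at day 6. The day 4 libraries all lay below day 0, by 1.24-fold (log2 -0.31 ± 0.06, adjusted p = 3.90e-06). It shares 10.7% of its exon bases with an antisense gene that reached at most 6 counts in a library. At day 2 the order of Plxna1, at 8.91 ± 0.488 CPM per kb, and Plxnb2, at 8.66 ± 0.217, is within the spread.

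Plxna2 (ENSMUSG00000026640, chromosome 1, 194618218 to 194816869, plus strand), a receptor for Sema6A and for Sema3 with neuropilins, was the plexin that changed most. It had 2.03, 2.1004 and 2.405 CPM at day 0, and 38.1, 40.5 and 35.9, then 51.98, 47.6 and 44.6 and finally 39.6, 36.8 and 42.99 CPM at days 2, 4 and 6. Nearly all of its rise, 17.5-fold, came by day 2 (log2 4.13 ± 0.13, adjusted p = 2.22e-26). All later libraries lay far above day 0, and the later steps were 0.34 ± 0.07 (adjusted p = 8.53e-05) and -0.28 ± 0.07 (adjusted p = 0.00121). Plxnd1 (ENSMUSG00000030123, chromosome 6, 115954811 to 115995005, minus strand), the endothelial receptor for Sema3E, had 6.22, 5.78 and 4.05 CPM at day 0, 6.74, 7.395 and 7.82 at day 2, 12.3, 12.97 and 12.8 at day 4 and 18.2, 19.1 and 16.6 at day 6, and rose 3.34-fold by day 6 (log2 1.74 ± 0.13, adjusted p = 5.41e-15). Its ligand gene Sema3e was by then at 2.95 ± 0.498 CPM.

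Plxna3 had 11.6, 12.996 and 10.6 CPM at day 0, 5.38, 8.68 and 6.91 at day 2, 9.58, 10.6 and 12.4 at day 4 and 10.8, 9.18 and 12.2 at day 6, with a dip at day 2 (log2 -0.75 ± 0.15, adjusted p = 2.66e-05) and overlap of days 0, 4 and 6. Plxnb1, the Sema4D receptor, had 21.2, 18.9 and 19.1 CPM at day 0, 16.4, 15.997 and 17.7 at day 2, 19.8, 15.9 and 20.7 at day 4 and 13.7, 15.3 and 19.8 at day 6. Day 6 overlapped each of the other days. Its small falls against day 0 were -0.25 ± 0.11 (adjusted p = 0.0479) at day 2 and -0.303 ± 0.11 (adjusted p = 0.0173) at day 6. The first was lost with single libraries left out, at -0.19 without day 0 replicate 1 (adjusted p = 0.205), -0.28 without day 0 replicate 2 (adjusted p = 0.0555), -0.28 without day 0 replicate 3 (adjusted p = 0.0637), -0.23 without day 2 replicate 1 (adjusted p = 0.114), -0.22 without day 2 replicate 2 (adjusted p = 0.117), -0.24 without day 4 replicate 1 (adjusted p = 0.0546) and -0.24 without day 6 replicate 2 (adjusted p = 0.0547). It was also lost with library size alone (log2 -0.12, adjusted p = 0.356), without a count filter (log2 -0.198, adjusted p = 0.111) and with DESeq2 (log2 -0.25, adjusted p = 0.0920). The second was lost at -0.25 without day 0 replicate 1 (adjusted p = 0.0969), -0.17 without day 6 replicate 1 (adjusted p = 0.206) and -0.27 without day 6 replicate 2 (adjusted p = 0.0536), and with library size alone (log2 -0.199, adjusted p = 0.113). Plxnc1, the receptor for Sema7A, rose from 0.460 ± 0.273 to 1.89 ± 1.096 CPM (log2 2.0 ± 0.51, adjusted p = 0.000728), while Sema7a fell. The Plxnc1 value rests on 2, 3 and 6 counts at day 0, and could not be tested in a fit to the 6 libraries compared. Plxna4 and Plxnb3 were under the count filter, with at most 9 and 5 counts.

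**Figure D3:**
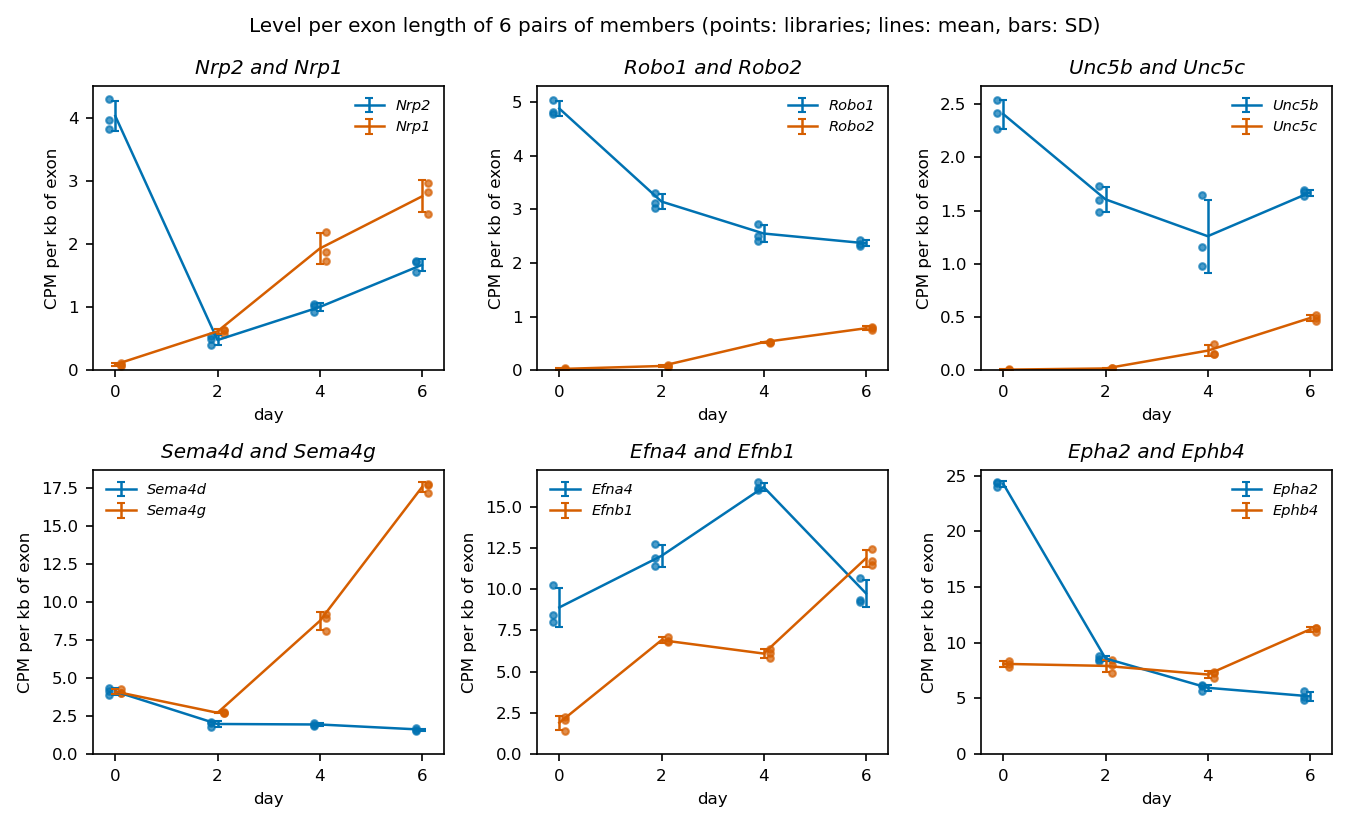
CPM per kb of exon against day for 6 pairs of genes chosen after their values were seen, with a point per library, lines through the means and bars for the SD of 3 libraries. Nrp1 overtakes Nrp2, Sema4g leaves Sema4d, and Efnb1 and Ephb4 pass Efna4 and Epha2, while Robo2 and Unc5c stay below Robo1 and Unc5b on every day.

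Slit ligands fell together at day 2, when 3 of 3 were below day 0 (background 33.2%), and diverged afterwards. Slits repel axons from the midline and also act on migrating cells and vessels. Slit3 (ENSMUSG00000056427, chromosome 11, 35121224 to 35708507, plus strand) had 4.63, 3.02 and 3.16 CPM at day 0, 2.05, 2.81 and 2.27 at day 2, 10.7, 12.01 and 12.2 at day 4 and 12.6, 12.6 and 12.8 at day 6. Its rise came between days 2 and 4, at 4.86-fold (log2 2.28 ± 0.16, adjusted p = 3.55e-15), after which days 4 and 6 differed by 0.13 ± 0.12 (adjusted p = 0.406). Slit2 (ENSMUSG00000031558, chromosome 5, 47983138 to 48307733, plus strand) had 6.103, 7.88 and 6.96 CPM at day 0, 5.53, 3.54 and 5.64 at day 2, 7.94, 7.01 and 6.81 at day 4 and 15.6, 13.6 and 15.2 at day 6, with its larger step at the end (2.04-fold, log2 1.03 ± 0.13, adjusted p = 3.91e-08). Slit1, the nervous system member, fell from 2.47 ± 0.384 to 0.289 ± 0.255 CPM at day 4 (log2 -2.88 ± 0.43, adjusted p = 1.94e-07) and was still low at day 6, at 0.602 ± 0.134 CPM. Per length, Slit3 took 45.9 ± 8.03% of the Slit sum at day 0 and 85.1 ± 2.93% at day 4. These shares depend on exon unions of 25433 bases for Slit2 and 6067 for Slit3. In CPM, Slit2 was above Slit3 at days 0, 2 and 6 and below it at day 4. The falls of Slit2 and Slit3 at day 2 were small, at -0.505 ± 0.17 (adjusted p = 0.00755) and -0.62 ± 0.21 (adjusted p = 0.0107). They were lost when single libraries were left out: Slit2 gave -0.41 (adjusted p = 0.0557) without day 0 replicate 2 and -0.31 (adjusted p = 0.0967) without day 2 replicate 2. Slit3 gave -0.38 (adjusted p = 0.197) without day 0 replicate 1 and -0.51 (adjusted p = 0.0578) without day 2 replicate 1.

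Of the Robo receptors, Robo2 rose at every step and the other three were lower at day 6 than at day 0. Robo1 (ENSMUSG00000022883, chromosome 16, 72308306 to 73046095, plus strand) had 79.4, 79.03 and 83.4 CPM at day 0, 50.02, 51.4 and 54.5 at day 2, 39.9, 41.4 and 45.002 at day 4 and 40.1, 38.8 and 38.4 at day 6. It came down from day 0 to day 4 without overlap and was 2.06-fold lower at day 6 (log2 -1.04 ± 0.06, adjusted p = 1.39e-18). Robo2 (ENSMUSG00000052516, chromosome 16, 73891839 to 74411825, minus strand), with Robo1 the main axonal Slit receptor, had 0, 0.394 and 0.633 CPM at day 0, 1.21, 1.13 and 1.55 at day 2, 8.71, 8.93 and 8.94 at day 4 and 12.6, 13.4 and 13.8 at day 6. Days 4 and 6 lay several-fold above days 0 and 2, with a fitted rise of 5.28 ± 0.28 (adjusted p = 7.53e-20) at day 6. This rests on 0, 3 and 5 counts at day 0, and was 4.65 (adjusted p = 2.89e-17) without day 0 replicate 1 and 6.08 (adjusted p = 3.59e-17) without day 0 replicate 3. The step from day 2 to day 4, which does not use day 0, was 6.84-fold (log2 2.77 ± 0.20, adjusted p = 1.64e-14). Per length Robo1 was the highest Robo on each day, with 2.37 ± 0.0551 CPM per kb against 0.781 ± 0.0337 for Robo2 at day 6. Robo3, of commissural axons, and Robo4, of endothelium, fell from 3.93 ± 0.253 and 4.13 ± 0.450 CPM at day 0 to 2.04 ± 0.326 and 1.38 ± 0.472 CPM at day 6 (log2 -0.96 ± 0.23, adjusted p = 0.000343 and log2 -1.55 ± 0.26, adjusted p = 1.70e-06). Of the endothelial markers, 5 of 8 were above day 0 at day 6 and 3 below (background 39.4% and 37.5%), and their part was not tested.

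Among netrins, Ntn1 dipped and Ntn3 and Ntn4 rose. Ntn1 (ENSMUSG00000020902, chromosome 11, 68209364 to 68400823, minus strand), the attractant of commissural axons, had 16.7, 19.2 and 19.5 CPM at day 0, 3.71, 3.62 and 3.001 at day 2, 9.78, 8.55 and 8.38 at day 4 and 12.3, 10.4 and 10.5 at day 6. It fell 5.297-fold by day 2 (log2 -2.41 ± 0.13, adjusted p = 9.96e-19), rose 2.58-fold by day 4 (log2 1.37 ± 0.15, adjusted p = 1.01e-09), and remained below day 0 in all libraries. Ntn4, which binds laminins of basement membranes, rose 4.08-fold by day 6, from 0.975 ± 0.276 to 4.08 ± 1.15 CPM (log2 2.03 ± 0.30, adjusted p = 1.73e-07). Ntn3 rose from 0.981 ± 0.303 to 2.25 ± 0.303 CPM at day 2 (log2 1.19 ± 0.31, adjusted p = 0.000836). It had at most 31 counts in a library. Of its exon bases, 1.74% are shared with Tbc1d24 on the same strand, which reached 242 counts. Per length Ntn1 led at days 0, 4 and 6. At day 2 Ntn4, at 0.614 ± 0.141 CPM per kb, and Ntn1, at 0.549 ± 0.0616, lay within their spread. Ntn5 had at most 1 count in a library and was not tested.

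The Unc5 receptors, which turn the response to netrin into repulsion, were led on each day by Unc5b, a receptor also known from vessels. Unc5b (ENSMUSG00000020099, chromosome 10, 60762593 to 60831581, minus strand) had 15.1, 15.9 and 14.2 CPM at day 0, 10.003, 9.32 and 10.8 at day 2, 7.26, 10.3 and 6.104 at day 4 and 10.5, 10.3 and 10.6 at day 6. All later libraries were below day 0 (log2 -0.53 ± 0.12, adjusted p = 0.000227 at day 6), and the day 4 libraries were spread more widely than the others. Unc5c (ENSMUSG00000059921, chromosome 3, 141465216 to 141834924, plus strand) was close to absent at first, with 2, 0 and 0 counts at day 0 and 5, 5 and 1 at day 2, and then had 2.904, 4.61 and 2.98 CPM at day 4 and 9.35, 8.75 and 9.98 CPM at day 6. The ratio of CPM to day 0 was 114 (95% counting interval 31.3 to 947) at day 6 and 43.4 (95% counting interval 11.7 to 364) at day 4, where the intervals cover counting error only. Without day 0 replicate 1, the sole day 0 library with counts, day 0 has none. From day 4 to day 6 the gene rose 2.63-fold (log2 1.39 ± 0.18, adjusted p = 7.46e-08). Unc5a went up from 0.323 ± 0.112 CPM to 1.31 ± 0.289 CPM at day 6 (log2 1.92 ± 0.50, adjusted p = 0.000660), and Unc5d from 0.571 ± 0.312 to 1.95 ± 0.189 CPM at day 4 (log2 1.74 ± 0.40, adjusted p = 0.000213). The Unc5a value rests on 8 counts in all at day 0, and could not be tested in a fit to the 6 libraries compared. Per length, Unc5b held 94.4 ± 1.89% of the Unc5 sum at day 0 and 63.5 ± 0.725% at day 6, and Unc5c 18.6 ± 1.12% at day 6. These shares depend on exon unions of 6258 bases for Unc5b and 19135 for Unc5c. In CPM the genes were closer at day 6, at 10.45 ± 0.178 for Unc5b and 9.36 ± 0.618 for Unc5c.

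**Figure D4:**
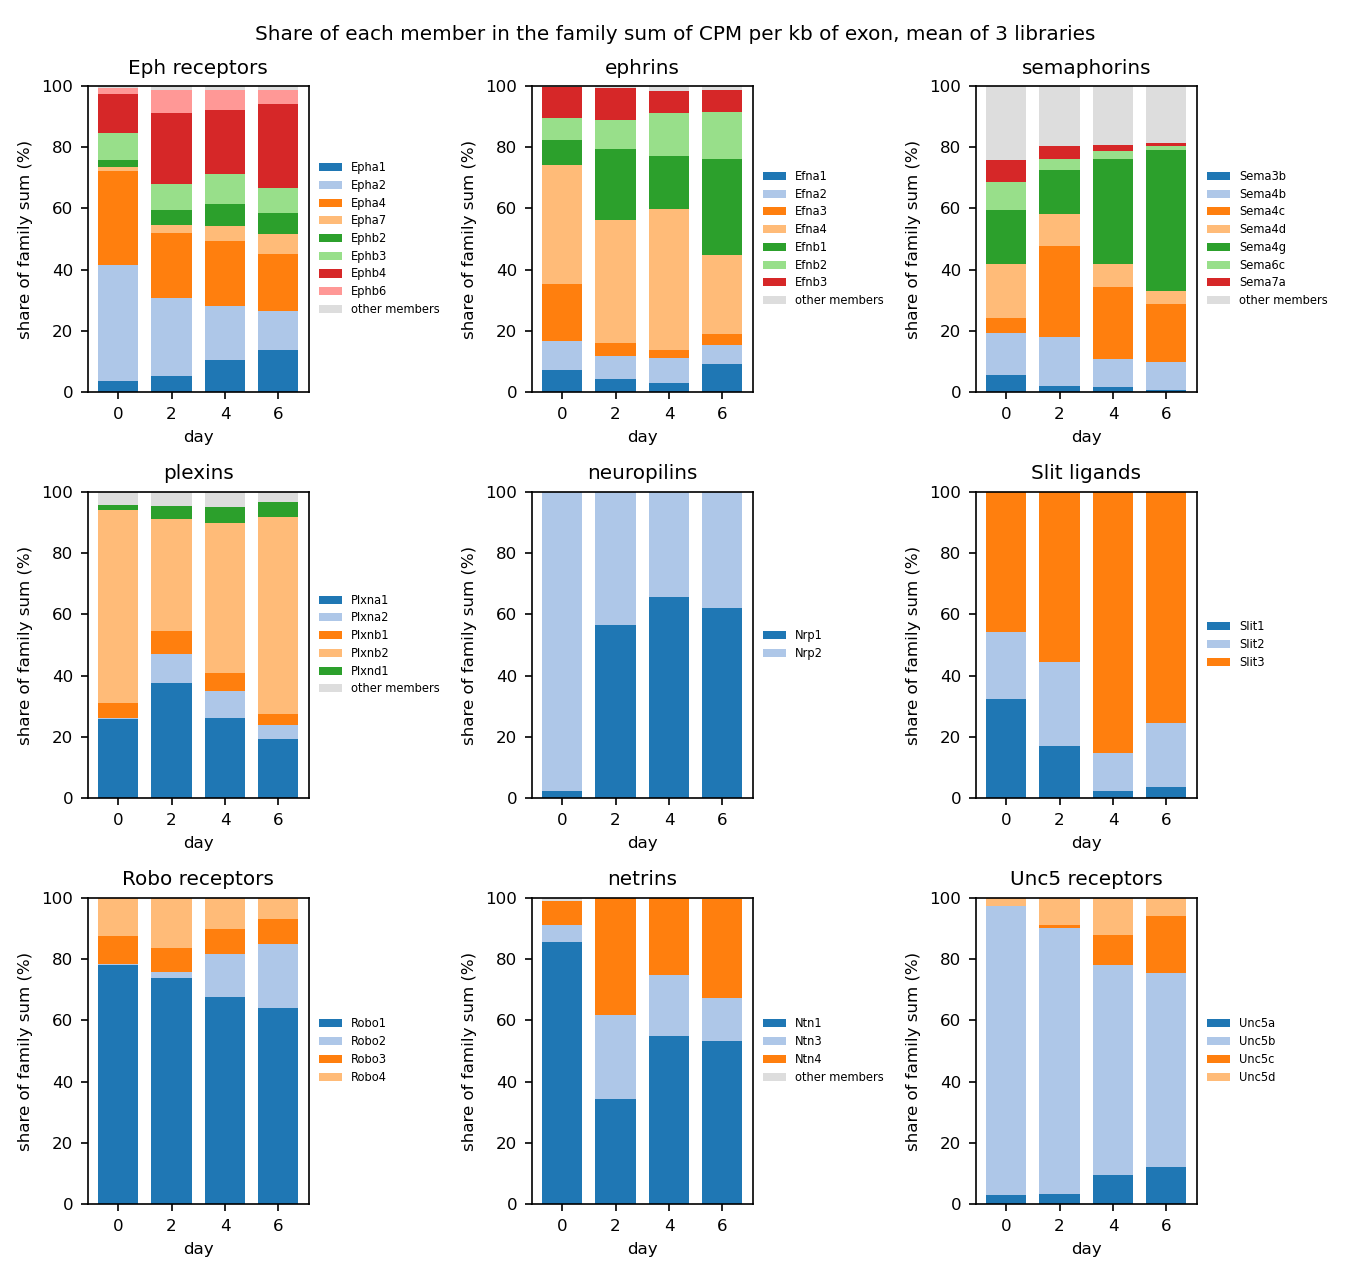
Share of each gene in the summed CPM per kb of exon of its family at days 0, 2, 4 and 6, as the mean of 3 libraries, with genes that never reach 5% pooled as other members. Epha2 shrinks from 37.9 to 12.7% of Eph receptors, Sema4g grows from 17.6 to 45.9% of semaphorins, and Plxnb2 holds 63.0% of plexins at day 0, 36.7% at day 2 and 64.5% at day 6.

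Courses over successive days were compared with those of all tested genes. A fall by day 2 followed by a rise from day 2 to day 4 was found for 9 of the 60 genes (15%, background 6.7%). These were Epha1, Ephb3, Nrp2, Ntn1, Plxna3, Plxnb2, Sema4g, Slit2 and Slit3. Both steps share the day 2 libraries, so a deviation of these libraries would enter both, and for Epha1, Ephb3, Slit2 and Slit3 a step was lost when single libraries were left out. For Epha1 at day 2 these were day 0 replicate 1, with -0.33 (adjusted p = 0.0745), day 0 replicate 2, with -0.32 (adjusted p = 0.0785), day 2 replicate 2, with -0.303 (adjusted p = 0.0781), and day 2 replicate 3, with -0.29 (adjusted p = 0.0874). For Ephb3 from day 2 to day 4 they were day 2 replicates 1, 2 and 3, with 0.26 (adjusted p = 0.0618), 0.25 (adjusted p = 0.0646) and 0.23 (adjusted p = 0.0908), and day 4 replicate 1, with 0.12 (adjusted p = 0.375). A rise at each of the 3 steps was found for 6 genes (10%, background 4.54%), Efnb2, Nrp1, Plxnd1, Robo2, Sema6a and Sema6d. The first step of Plxnd1 was lost without day 0 replicate 3, at 0.28 (adjusted p = 0.139). Epha2 alone fell at each step (background 2.62%), and its last step, -0.21 ± 0.07 (adjusted p = 0.0195), was lost without day 4 replicate 1 (log2 -0.202, adjusted p = 0.0608), day 4 replicate 2 (log2 -0.19, adjusted p = 0.0842) or day 6 replicate 1 (log2 -0.16, adjusted p = 0.148), and with DESeq2 (log2 -0.22, adjusted p = 0.0573).

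Genes that work with these ligands and receptors were taken from lists written from general knowledge. Of 17 partners, such as receptors for netrins and repulsive guidance molecules, 14 had enough counts to be tested. Of these, 9 were above and 4 below day 0 at day 2 (background 68.1%). At day 6, 10 were above and 4 below (background 76.9%), with a median log2 of 0.89, over all genes 0.02. Neo1, which encodes neogenin, a receptor for netrins and repulsive guidance molecules, rose from 55.2 ± 2.56 to 100.3 ± 3.72 CPM at day 2 (log2 0.86 ± 0.05, adjusted p = 3.69e-17). Rgma, a neogenin ligand, rose from 3.12 ± 0.137 to 19.3 ± 1.35 CPM (log2 2.62 ± 0.14, adjusted p = 2.76e-19). Flrt3, which encodes a ligand of Unc5 receptors, rose from 6.77 ± 1.197 CPM at day 0 to 40.04 ± 1.38 CPM at day 6 (log2 2.57 ± 0.11, adjusted p = 3.85e-23). Lrig1, a membrane regulator of growth factor receptors, rose 3.11-fold by day 2 (log2 1.64 ± 0.09, adjusted p = 1.04e-18).

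Of 29 effectors inside the cell or at its surface, 15 were above and 10 below day 0 at day 2 (background 68.1%), and 18 above and 7 below at day 6 (background 76.9%). The median log2 at day 6 was 0.51, over all genes 0.02. Adam10, a protease that cleaves ephrins, rose from 53.2 ± 3.12 to 128 ± 6.56 CPM (log2 1.26 ± 0.06, adjusted p = 9.33e-22). Sdcbp, whose product syntenin binds the tails of ephrin-B proteins, rose from 17.7 ± 1.45 to 63.6 ± 2.09 CPM (log2 1.84 ± 0.08, adjusted p = 3.84e-22). The kinase gene Abl1 rose 2.32-fold by day 2 (log2 1.21 ± 0.05, adjusted p = 3.75e-22). Tiam1, an activator of Rac, fell from 107 ± 5.28 CPM at day 0 to 31.2 ± 1.39 at day 2 and 17.9 ± 1.47 at day 6 (log2 -2.56 ± 0.07, adjusted p = 1.24e-29).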

How the data were processed

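Per the labels, polyadenylated RNA of 12 libraries, 3 per day, was extracted with a MiniBEST kit and prepared with a SMARTER kit. The authors deposited raw counts for each gene. The mm10 build, HISAT2 2.1.0, featureCounts 2.0.1, FastQC 0.11.7 and DESeq2 are named, without roles, in the submitters' processing notes. Strandedness and annotation are not given in the sources used here.

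Counts were fitted in R 4.3.3 with edgeR 4.0.16 (filterByExpr by day, TMM, quasi-likelihood, a coefficient per day, robust spread, all 12 libraries). SE were recovered from the test statistic. Tests were two-sided, with Benjamini-Hochberg adjustment over the 16468 tested genes. CPM use TMM-scaled totals of tested genes. Coordinates and exon lengths (the union of exons) come from GENCODE M21 on GRCm38, which held all 68 IDs with their versions. Genes and lists were chosen with earlier results of these data known. Genes with a mean of at least 10 CPM on a day are given in every library. Those below are given by value where a change passed with at least 4-fold, or where they led their family per length, and the remaining ones, named after their values were seen, complete each family. Of partners and effectors, the 4 with the smallest F-test p of each list are named.

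Alternatives used limma 3.58.1 and DESeq2 1.42.0. The edgeR fit was run on counts simulated from its own fitted spread, for day 2 against day 0. It recovered 26.5% of 1.25-fold, 62% of 1.5-fold, 85.7% of 2-fold and 100% of 4-fold changes, and called 0.0378% of unchanged genes. There 15863 of 16061 genes were unchanged, whereas 68.1% of tested genes passed in the data. These shares may therefore not carry over to the data. Between replicates, the chi-square per degree of freedom was 1.51 to 3.80, and no libraries held identical values. Figures used Python 3.11.15 and matplotlib 3.10.9.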

Additional observations from a re-analysis of the deposited data

How the results depend on the processing

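No tested guidance gene with a call reversed its direction under any alternative: scaling by median ratios, upper quartiles or library size, no count filter or 1 CPM in 3 libraries, DESeq2, limma-voom, a fit to the 6 libraries compared, a replicate block, adjusted p under 0.01, and each library left out. Of 221 calls over the 60 genes and 5 comparisons, 35 were lost without at least 1 library and 25 under at least 1 other alternative apart from adjusted p under 0.01, counting fits in which the gene was tested. Another 5 calls could not be tested in the fit to the 6 libraries compared. Under adjusted p under 0.01, 28 were lost, with DESeq2 22 and with library size alone 9, where 7 were gained. Counts of risen and fallen genes over all 60 stayed within 1.5 times of the reported ones, except the 4 falls from day 4 to day 6, which were 2 with DESeq2 and with adjusted p under 0.01, and 2 to 5 with a library left out. The 2 came without day 6 replicate 1. The cause was not tested. Counts within families are smaller and moved more, as given beside them. With a library left out, falls at day 2 were 23 to 29 and rises 17 to 20. Replicate numbers are shared between days, but the deviations of same-numbered libraries correlated at only -0.038 to 0.034 over 18 pairs. Of 12 libraries, 4 were closest to their own number, so no effect shared by number was seen. Whether the numbers pair the samples is not stated, and these values cannot decide it. With a replicate block, 1 call was lost, that of Ephb3 from day 2 to day 4 (log2 0.25, adjusted p = 0.0546), and the counts were 18 higher and 29 lower at day 2, 28 and 25 at day 4 and 33 and 21 at day 6. Depth limits the low genes: with 2 counts at day 0, the interval of the Unc5c ratio spans more than a factor of 10.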
